A study of Mus musculus with 15 samples.

Results

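The lysosome genes followed here are 54 of the 35794 Entrez genes in the count table of mouse perigonadal fat. They comprise 26 protein-coding genes whose symbol begins with Atp6v0, Atp6v1 or Atp6ap, which encode the proton pump of the lysosome, and 28 listed genes for lysosomal hydrolases, their activators, membrane proteins and transcription factors. Of the 54, 50 passed the filter on low counts. The 4 that did not were Atp6v1b1, Atp6v1e2, Atp6ap1l and Atp6v1fnb, the last taken in by its symbol and named for its position next to Atp6v1f.

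Poly(A) RNA of whole fat pads from C57BL/6 mice was sequenced in 3 groups, all 14 weeks old. Lean mice (5 libraries) ate chow. Obese mice (5 libraries) ate a 60% high-fat diet from 8 weeks of age, and weight loss mice (4 libraries) ate that diet for 5 weeks and then chow for 1 week. The labels name no transgene or drug and do not give the sex or say which library came from which mouse, so p-values measure the spread between these samples. Library totals lay between 13924770 and 33807887 counts. Weight loss replicate 5 was left out, because its total was 230 counts. Defining adipocyte transcripts were abundant in each library used, with a sum of 12 markers of between 23669 and 40620 CPM (counts scaled to a library of 1000000). Epididymis markers, by contrast, summed to between 3813 and 8808 CPM in lean replicate 1 and obese replicates 2, 4 and 5 and to at most 783 CPM in the other 10 libraries.

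Lysosomes digest what a cell takes in or recycles, and their hydrolases work in an acid lumen. The pump that acidifies it has a membrane sector, V0, which carries protons, and a cytosolic sector, V1, which burns ATP to turn it. In fat the lysosome is best known in macrophages, which clear lipid and dead adipocytes and degrade matrix, and adipocytes use it for autophagy. The transcription factors encoded by Tfeb and Tfe3 switch on many lysosomal genes through an E-box motif in their promoters.

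In obese fat 15 of the 50 tested genes were higher than in lean fat and none was lower, at an adjusted p under 0.05 in edgeR's quasi-likelihood test over all 15208 tested genes. Over all genes 5.86% were called higher and 3.85% lower in this comparison, 9.71% in all. Without obese replicate 3 the count of higher genes was 9, and 503 over all genes. The 15 were 8 of 12 proteases, 3 of 6 glycosidases, the acid lipase Lipa and 3 of 22 tested pump genes. The median log2 fold change was 0.29 over the 50 genes and -0.02 over all genes. Every obese library lay above every lean library for 17 of the 50, and none lay wholly below, where 6.04% and 4.31% of all genes did so. No gene of the 50 was called between weight loss and obese fat or between weight loss and lean fat. Tfeb and Tfe3 did not pass in any comparison.

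The promoter sequences are shown because a good number of these genes carry the E-box that Tfeb and Tfe3 bind. RefSeq windows on GRCm38.p6 (250 bases before to 50 after each start site) were at hand for 44 of the 54 genes, all but Asah1, Atp6ap1l, Atp6v0a2, Atp6v0d2, Atp6v1b2, Atp6v1c1, Atp6v1g1, Atp6v1h, Ctsb and Ctsh. The E-box core CACGTG, which reads the same on both strands, stood in the windows of 15 of these 44 genes (34.1%). It stood in 8.09% of all 27025 genes with such a window, whether or not they were tested in fat. The longer TCACGTGA, which contains that core, stood in 7 of the 44 (15.9%) against 1.13% of the 27025 genes. The full consensus of the motif known as CLEAR, GTCACGTGAC, which contains both, was found in none of the 44 and in 0.37% of the 27025 genes. Each line below gives a match with 10 bases on either side, in the gene's own direction, with the 6 bases of the core in capitals. The first 6 lines are all matches in genes that were higher in obese fat, the next 4 are those of Lamp1, the gene of a main lysosomal membrane protein, and the last 6 are examples of the longer form.
Ctsd, chr7:142387910-142387935, minus strand: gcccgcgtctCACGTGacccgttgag
Ctsl, chr13:64370741-64370766, minus strand: cgttagaagcCACGTGctgatctaaa
Lgmn, chr12:102439126-102439151, minus strand: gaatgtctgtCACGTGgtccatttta
Ctsf, chr19:4855076-4855101, plus strand: ccccgtggtcCACGTGcctcgcgtaa
Glb1, chr9:114401020-114401045, plus strand: gcttctgagtCACGTGgcctacagag
Atp6v0e, chr17:26676389-26676414, plus strand: gcgcgccgatCACGTGagcctctgtt
Lamp1, chr8:13159090-13159115, plus strand: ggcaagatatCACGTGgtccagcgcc
Lamp1, chr8:13159106-13159131, plus strand: gtccagcgccCACGTGatgccgactg
Lamp1, chr8:13159123-13159148, plus strand: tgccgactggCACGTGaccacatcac
Lamp1, chr8:13159136-13159161, plus strand: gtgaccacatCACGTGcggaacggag
Ctsa, chr2:164833751-164833776, plus strand: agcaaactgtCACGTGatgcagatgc
Ctsa, chr2:164833768-164833793, plus strand: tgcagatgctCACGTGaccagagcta
Gla, chrX:134601217-134601242, minus strand: agcgattgatCACGTGagcatctacg
Gla, chrX:134601184-134601209, minus strand: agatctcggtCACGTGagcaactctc
Atp6v0d1, chr8:105566052-105566077, minus strand: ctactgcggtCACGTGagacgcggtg
Mcoln1, chr8:3500464-3500489, plus strand: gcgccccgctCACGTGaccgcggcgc
Ctsd, Atp6v0e, Ctsa, Gla and Atp6v0d1 carried the longer 8-base form at each match shown, as did Mcoln1 at the match shown, while Ctsl, Lgmn, Ctsf, Glb1 and Lamp1 carried the core alone. Lamp1 had the most matches, 4 within 61 bases of the start site. Among genes higher in obese fat, 6 of the 13 with a window had the core, and among tested genes that were not called, 9 of 28. Windows of Ctss, Ctsk, Ctsz, Gusb, Hexa, Lipa and Atp6v0a1, which were also higher in obese fat, and those of Tfeb and Tfe3 did not have these letters.

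**Figure D1:**
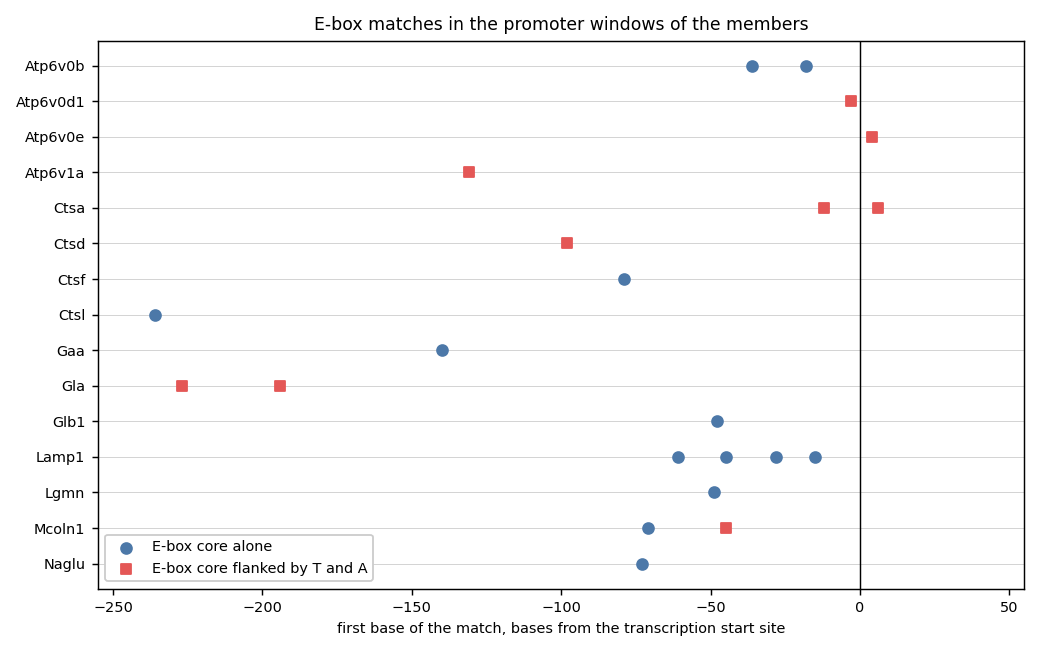
E-box matches in the promoter windows of the 15 genes that have one, by the position of the first base of the match relative to the transcription start site (0 on the horizontal axis, in bases). Circles are the core alone and squares the core flanked by T and A. Of the 22 matches 2 begin after the start site, and Lamp1 has 4.

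Of the 22 tested pump genes 3 rose in obese against lean fat, Atp6v0e, Atp6v0a1 and Atp6v1b2, and none fell. Calls over all genes were 5.86% higher and 3.85% lower. The median log2 fold change of the pump genes was 0.20. Atp6v0e encodes the small e subunit of the V0 sector (Entrez ID 11974, chr17:26676396-26699647 on mm10). Its level was 91.5, 85.6, 79.6, 105 and 77.0 CPM in lean replicates 1 to 5, 118, 119, 162, 148 and 141 CPM in obese replicates 1 to 5, and 98.3, 93.4, 109 and 121 CPM in weight loss replicates 1 to 4. Each obese library lay above each lean library, and the weight loss libraries overlapped with both. Atp6v0e rose 1.57-fold in obese fat, a log2 change of 0.65 ± 0.12 (adjusted p = 0.00466).

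Atp6v0a1 encodes the a1 form of the subunit through which protons pass. It measured 139, 137, 125, 199 and 166 CPM in lean, 212, 233, 216, 188 and 223 CPM in obese and 215, 144, 144 and 148 CPM in weight loss libraries. Lean replicate 4 reached into the obese range, and 3 of the 4 weight loss libraries were at the lean level while replicate 1 was at the obese level. The rise in obese fat was 0.48 ± 0.14 on the log2 scale, just inside the threshold (adjusted p = 0.0473). It passed in only 2 of the 14 fits that left out 1 library each, without lean replicate 4 and without weight loss replicate 1, with adjusted p values of 0.0240 to 0.116. Atp6v1b2 encodes the B2 subunit, which helps to bind ATP in the V1 sector. Its values were 107, 120.3, 116, 101 and 120.2 CPM in lean, 133, 140.4, 145, 146 and 148 CPM in obese and 143, 113, 135 and 134 CPM in weight loss fat. Obese and lean libraries did not overlap, and 3 of the 4 weight loss libraries were in the obese range. The change in obese fat was 0.33 ± 0.09 on the log2 scale (adjusted p = 0.0317). Atp6v1b2 kept its call in 6 of the 14 fits without 1 library, with adjusted p values of 0.0277 to 0.118.

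The d subunit, which joins the turning parts of V0 and V1, is encoded by a pair of paralogues that differed in level and in spread. Atp6v0d1, the form found in most cells, was the most abundant pump gene per length, at 135 CPM per kb of exon in lean fat against 1.10 CPM per kb for Atp6v0d2 (exon lengths from GENCODE M21, all isoforms joined). Its level was 209, 216, 263, 262 and 259 CPM in lean, 234, 234, 252, 229 and 293 CPM in obese and 210.0, 208, 215 and 250.2 CPM in weight loss libraries, with the groups overlapping throughout. The log2 difference between obese and lean fat was 0.04 ± 0.11 (adjusted p = 0.874), and it turned negative, at -0.04, without the 4 libraries richest in epididymis markers.

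Atp6v0d2 (chr4:19876838-19922566 on mm10) is best known from osteoclasts and macrophages. It stood at 7.89, 0.993, 2.53, 2.01 and 1.56 CPM in lean, 7.20, 25.0, 3.91, 12.6 and 9.10 CPM in obese and 32.4, 4.57, 27.8 and 5.93 CPM in weight loss libraries. Weight loss replicates 1 and 3 and obese replicate 2 were the 3 highest, and weight loss replicates 2 and 4 were below the level of lean replicate 1. With this spread neither the difference between obese and lean fat (log2 1.93 ± 0.67, adjusted p = 0.0845) nor that between weight loss and lean fat (log2 2.54 ± 0.71, adjusted p = 0.190) passed. Without lean replicate 1 the first of these passed, at a log2 value of 2.69 and an adjusted p of 0.0243. That library is 1 of the 4 richest in epididymis markers. Obese replicates 2, 4 and 5, also among those 4, stayed in that fit and held the highest obese values of Atp6v0d2. Whether epididymal cells bear on this difference was not tested. DESeq2's Wald test called both differences, obese and weight loss against lean fat, with adjusted p values of 0.0432 and 0.0415.

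The other V0 genes, Atp6v0a2, Atp6v0a4, Atp6v0b, Atp6v0c and Atp6v0e2, had log2 differences of between 0.04 and 0.22 in obese against lean fat and did not pass in any comparison. Among them was Atp6v0c, the proteolipid of the rotating ring, at 285 ± 39.3 CPM in lean (SD, n = 5), 332 ± 58.7 CPM in obese (SD, n = 5) and 273 ± 41.0 CPM in weight loss fat (SD, n = 4). The V1 subunits Atp6v1a, which holds the catalytic site, Atp6v1c1, Atp6v1d, Atp6v1e1, Atp6v1f, Atp6v1g1 and Atp6v1g2 had log2 differences of between -0.17 and 0.40 in obese against lean fat, and none passed. Larger log2 differences with wide errors, 0.77 ± 0.57 for Atp6v1c2 and 2.61 ± 1.67 for Atp6v1g3, did not pass either. Atp6v1h, a regulatory subunit of V1, measured 66.9, 58.0, 76.6, 62.6 and 44.1 CPM in lean, 73.5, 66.1, 66.3, 81.2 and 86.5 CPM in obese and 51.7, 77.2, 81.5 and 57.5 CPM in weight loss fat. The 3 groups overlapped (obese against lean log2 0.28 ± 0.16, adjusted p = 0.313). Of the accessory proteins, Atp6ap1 had a lean mean of 199.6 ± 29.4 and an obese mean of 222 ± 24.7 CPM (SD, n = 5 each), and Atp6ap2, also known as the prorenin receptor, means of 48.8 ± 17.9 and 62.0 ± 7.65 CPM (SD, n = 5 each). Neither passed.

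**Figure D2:**
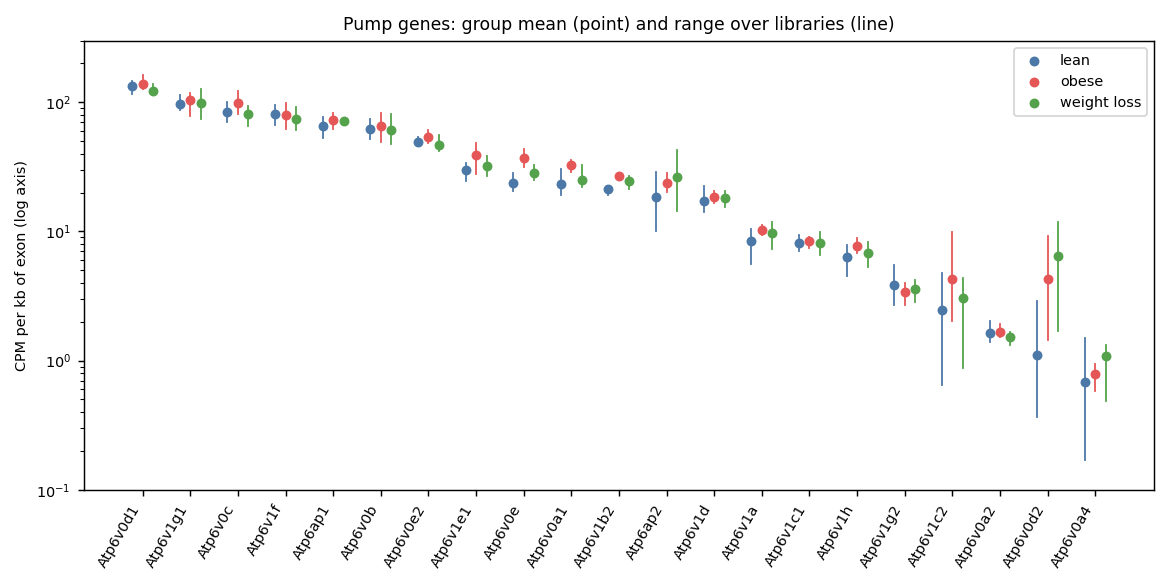
Level of 21 pump genes per kb of exon on a log axis, with the group mean as a point and the range over libraries as a line, ordered by the lean mean. Atp6v0d1 is the highest, at 135 CPM per kb in lean fat, and Atp6v0a4, Atp6v0d2 and Atp6v1c2 have wide ranges; Atp6v1g3, at 0 in 10 libraries, is left out.

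Of 9 genes typical of acid-secreting cells such as the clear cells of the epididymis and the intercalated cells of the kidney, 5 were highest in the same library. Obese replicate 4 held 11.7 CPM of Atp6v1g3, 21.6 CPM of Atp6v1c2 and 3.51 CPM of Atp6v1b1. In the other 13 libraries these genes reached at most 2.14, 10.4 and 0.353 CPM. The same library held 16.7 CPM of Foxi1, the transcription factor of such cells, against at most 1.65 CPM elsewhere, and 59.8 CPM of Rhcg, an ammonium transporter of theirs, against at most 4.53 CPM elsewhere. The other 4 genes of the list were not highest there: the pump gene Atp6v0a4 stood at 3.25 CPM against 7.40 CPM in lean replicate 1, the anion exchanger gene Slc4a1 at 0.628 CPM against 2.61 CPM in lean replicate 4, and Slc4a9 and Slc26a4 at 0. Atp6v1g3 was at 0 in all 4 weight loss libraries, against 0, 1.65, 0, 11.7 and 0.882 CPM in the obese libraries. In lean fat it stood at 2.14 CPM in replicate 1 and at 0 in the other replicates. The libraries in which it was above 0 were the 4 richest in epididymis markers. A count of 0 over the weight loss group allows up to 0.0383 CPM (3 counts, for counting error only), and most of the obese level came from replicate 4. The difference between weight loss and obese fat did not pass (adjusted p = 0.210). Whether epididymal cells in that pad supplied these transcripts was not tested.

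Proteases made up most of the genes that were higher in obese fat. Of 12 tested, 8 rose and none fell, against 5.86% called higher and 3.85% lower over all genes. The proteases had a median log2 fold change of 0.62, and Ctss rose most. Ctss encodes cathepsin S, a cysteine protease with which antigen-presenting cells trim the invariant chain of MHC class II (Entrez ID 13040, chr3:95526786-95556405 on mm10). Its level was 23.3, 11.1, 28.2, 13.6 and 15.5 CPM in lean, 82.6, 100.2, 88.9, 108 and 53.5 CPM in obese and 77.6, 34.9, 112 and 30.4 CPM in weight loss libraries. The lowest obese library lay well above the highest lean library, and after weight loss replicates 1 and 3 were at the obese level and replicates 2 and 4 just above the lean range. Ctss rose 4.71-fold in obese fat, a log2 change of 2.24 ± 0.36 (adjusted p = 0.00179).

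Ctsk encodes cathepsin K, a collagen-degrading protease best known from osteoclasts. It measured 17.4, 12.1, 16.6, 9.52 and 12.6 CPM in lean, 27.8, 29.4, 27.8, 30.9 and 27.7 CPM in obese and 33.4, 16.8, 31.9 and 22.4 CPM in weight loss fat. The obese libraries lay close together above all lean libraries, and the weight loss libraries spread from the lean range to above the obese range. The rise in obese fat was 2.10-fold (log2 1.07 ± 0.20, adjusted p = 0.00388). Lgmn encodes legumain, an endopeptidase that cuts after asparagine and matures cathepsins. It stood at 87.3, 71.3, 99.0, 93.9 and 62.9 CPM in lean, 167, 195, 148, 162 and 129 CPM in obese and 168, 92.3, 199 and 102 CPM in weight loss fat. Here too obese and lean libraries were apart, and weight loss replicates 1 and 3 were high while replicates 2 and 4 were near the lean range. The log2 rise in obese fat was 0.95 ± 0.21 (adjusted p = 0.0108).

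Ctsh, an aminopeptidase of the cathepsin family, was at 72.9, 44.8, 69.6, 44.6 and 41.5 CPM in lean, 94.5, 90.7, 94.5, 117 and 87.5 CPM in obese and 70.1, 60.7, 78.4 and 75.6 CPM in weight loss libraries. Obese libraries were above all others, and weight loss libraries were within or just above the lean range. Ctsh rose by a log2 value of 0.82 ± 0.16 in obese fat (adjusted p = 0.00666). Ctsl, a broadly expressed cysteine endopeptidase, read 354, 350.2, 397, 299.7 and 279.9 CPM in lean, 468, 542, 576, 603 and 638 CPM in obese and 421, 446, 530.4 and 401 CPM in weight loss libraries. The weight loss values filled the space between the lean and the obese ranges, and only replicate 3 reached the latter. For Ctsl the log2 rise in obese fat was 0.75 ± 0.12 (adjusted p = 0.00186). Ctsd, the main aspartic protease of the lysosome, was at 1389.5, 1780.3, 1359.7, 1547 and 1007 CPM in lean, 1928, 2153, 2456, 2046 and 2945 CPM in obese and 2081, 1373, 1674 and 1691 CPM in weight loss fat. Obese and lean libraries did not overlap, and of the weight loss libraries only replicate 1 reached the obese range. Ctsd rose by 0.70 ± 0.16 on the log2 scale (adjusted p = 0.0150).

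Ctsz encodes a carboxypeptidase. Its values were 216, 251, 276, 217 and 269 CPM in lean, 307, 385, 388, 321 and 375 CPM in obese and 416, 263, 384 and 326 CPM in weight loss fat, and Ctsz rose by a log2 value of 0.53 ± 0.13 in obese fat (adjusted p = 0.0212). Ctsf, another cysteine protease, was at 87.8, 101, 96.5, 79.6 and 71.6 CPM in lean, 104, 130.4, 123, 114 and 126 CPM in obese and 148, 108, 139.5 and 107 CPM in weight loss fat, and rose by 0.45 ± 0.13 (adjusted p = 0.0374). For both genes the obese libraries lay above the lean ones, and weight loss replicates 1 and 3 were at or near the top of all libraries. Ctsf kept its call in 7 of the 14 fits without 1 library (adjusted p 0.0323 to 0.116) and Ctsz in 11 (0.0130 to 0.0654).

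The remaining proteases did not pass. Ctsb, one of the most abundant cathepsins, had a lean mean of 1421 ± 177 and an obese mean of 1818 ± 89.3 CPM (SD, n = 5 each), and was just outside the threshold (adjusted p = 0.0532). Ctsa, a carboxypeptidase that also shields Glb1, had a log2 value of 0.36 ± 0.13 and Tpp1, a tripeptidyl peptidase, of 0.19 ± 0.14. Ctsc, the dipeptidyl peptidase that activates granule proteases of leukocytes, was the only protease with a negative difference (-0.17 ± 0.23), and its lean libraries spread from 57.1 to 139.9 CPM.

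**Figure D3:**
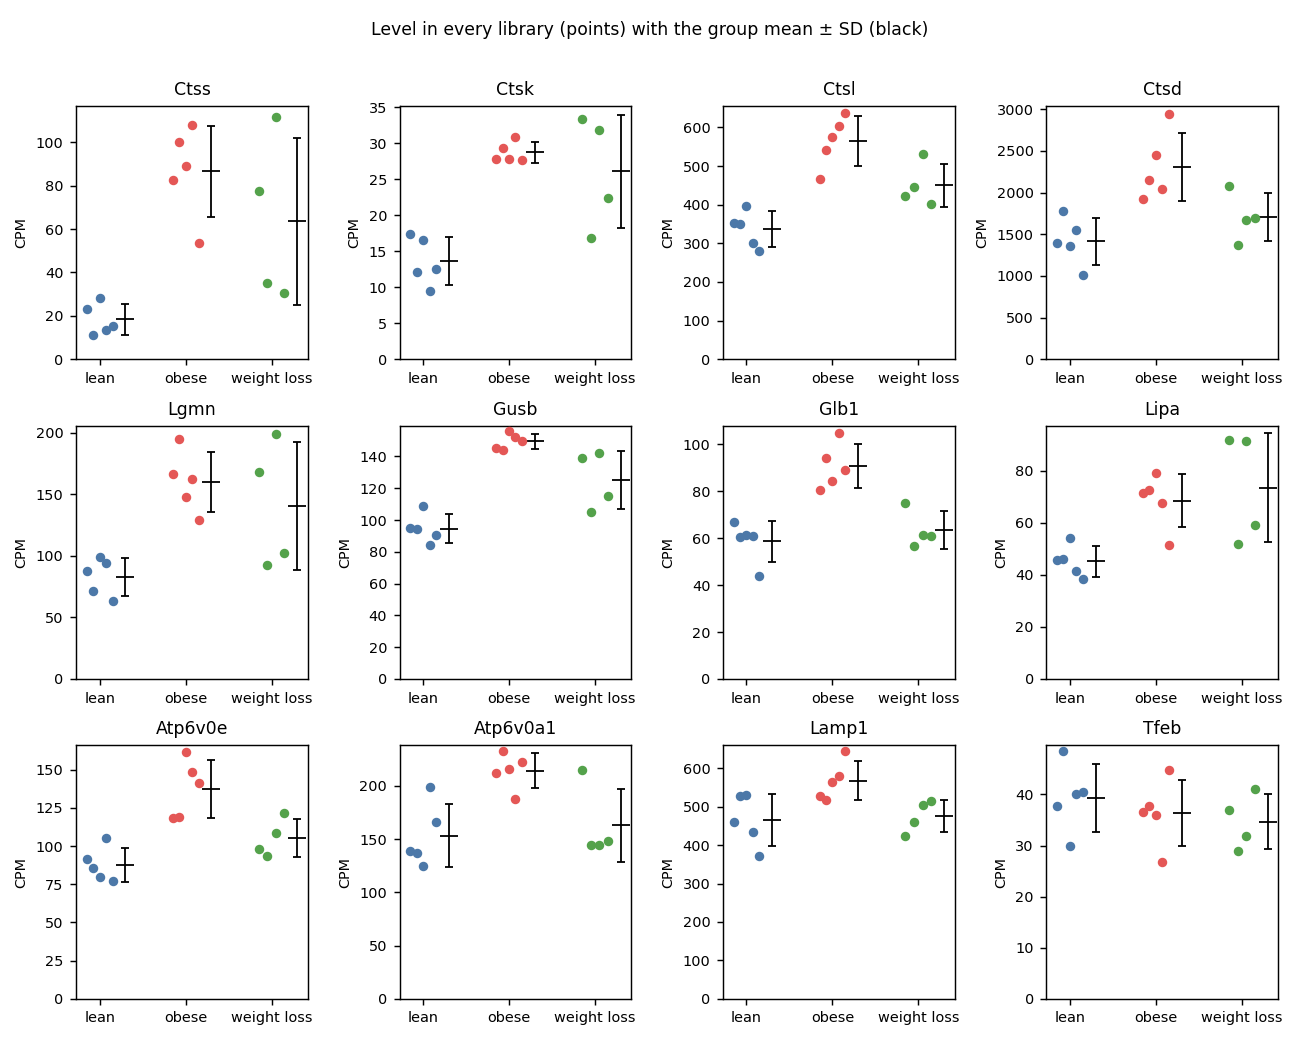
CPM of 12 genes in every library (points) with the group mean and SD (black), for 5 lean, 5 obese and 4 weight loss libraries, each axis from 0. The obese libraries lie above all lean libraries for Ctss, Ctsk, Ctsl, Ctsd, Lgmn, Gusb, Glb1 and Atp6v0e, while the 3 groups overlap for Tfeb.

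Glycosidases rose by less than the leading proteases, with 3 of 6 called, Gusb, Glb1 and Hexa, and none lower. The shares over all genes were 5.86% higher and 3.85% lower. Gusb encodes beta-glucuronidase, which trims glycosaminoglycans (chr5:129989011-130003049 on mm10). Its level was 94.9, 94.3, 109, 84.1 and 90.8 CPM in lean, 145, 144, 156, 152 and 149 CPM in obese and 139, 105, 142 and 115 CPM in weight loss libraries. The obese libraries were above all others and weight loss libraries ran from the lean range to just below the obese range. Gusb rose 1.58-fold in obese fat (log2 0.66 ± 0.10), with the smallest adjusted p of the 50 genes, 0.00151.

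Glb1 encodes beta-galactosidase, which digests gangliosides and keratan sulfate and is the enzyme read in stains for senescent cells. It measured 66.8, 60.4, 61.4, 61.0 and 43.9 CPM in lean, 80.8, 94.4, 84.5, 105 and 88.9 CPM in obese and 75.1, 56.8, 61.3 and 60.9 CPM in weight loss fat. Obese libraries were above all others, and 3 of the 4 weight loss libraries were inside the lean range. The rise in obese fat was 0.63 ± 0.12 on the log2 scale (adjusted p = 0.00604). Between weight loss and obese fat the difference was -0.51 ± 0.13 with an adjusted p of 0.0667, the nearest to a call of the 50 genes in that comparison. It passed without lean replicate 5 (0.0280), without weight loss replicate 1 (0.0495) and in DESeq2's Wald test (0.00653). Hexa, the alpha subunit of beta-hexosaminidase, which degrades gangliosides, read 136, 169, 180.2, 125 and 136 CPM in lean, 198, 197, 243, 192 and 220.0 CPM in obese and 197, 145, 192 and 198 CPM in weight loss fat. Lean and obese libraries were apart, and 3 of the weight loss libraries were near the lower end of the obese range while replicate 2 was in the lean range. Hexa rose by 0.49 ± 0.13 (adjusted p = 0.0257), a call kept in 9 of the 14 fits without 1 library (adjusted p 0.0138 to 0.0867).

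The other glycosidases had positive differences that did not pass. They were Gla, alpha-galactosidase A (log2 0.30 ± 0.19), Naglu, an enzyme of heparan sulfate breakdown (log2 0.29 ± 0.10), and Gaa, which breaks down lysosomal glycogen (log2 0.14 ± 0.13).

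Of the lipid hydrolases and their activators Lipa was the only one of 5 that rose, where 5.86% of all genes were called higher. Lipa encodes lysosomal acid lipase, which splits cholesteryl esters and triglycerides taken up by the cell. It stood at 45.7, 46.2, 54.2, 41.3 and 38.4 CPM in lean, 71.3, 72.7, 79.0, 67.6 and 51.6 CPM in obese and 91.6, 51.6, 91.3 and 59.2 CPM in weight loss libraries. Obese replicate 5 was inside the lean range and the other obese libraries were above it, and weight loss replicates 1 and 3 were the highest of all libraries. Lipa rose by 0.60 ± 0.17 on the log2 scale in obese fat (adjusted p = 0.0387), and the call held in 6 of the 14 fits without 1 library (adjusted p 0.0272 to 0.0997). Smpd1, acid sphingomyelinase, measured 148 ± 11.7 CPM in lean, 178 ± 18.8 CPM in obese (SD, n = 5 each) and 140.1 ± 12.0 CPM in weight loss fat (SD, n = 4). It did not pass in obese against lean (adjusted p = 0.0987) or weight loss against obese fat (adjusted p = 0.125). Asah1, acid ceramidase, Grn, which encodes progranulin, and Psap, the precursor of the saposins that present lipids to their hydrolases, had log2 values of 0.26 ± 0.19, 0.25 ± 0.12 and 0.24 ± 0.13 in obese against lean fat and did not pass.

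None of the 3 genes of the lysosomal membrane passed. Lamp1, a heavily glycosylated lining protein and a common marker of lysosome content, read 461, 527, 531, 433 and 371 CPM in lean, 529, 519, 564, 579.9 and 646 CPM in obese and 425, 459.9, 504 and 514 CPM in weight loss libraries. Obese libraries overlapped with the upper lean libraries and lay above all weight loss libraries. The log2 differences were 0.29 ± 0.11 for obese against lean (adjusted p = 0.122) and -0.25 ± 0.12 for weight loss against obese fat (adjusted p = 0.354). Lamp2, its paralogue with a role in autophagy, and Mcoln1, a lysosomal calcium channel, had log2 values of 0.07 ± 0.24 and -0.05 ± 0.11 in obese against lean fat.

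Neither transcription factor passed. Tfeb measured 37.7, 48.5, 30.0, 40.0 and 40.6 CPM in lean, 36.7, 37.7, 36.0, 26.7 and 44.7 CPM in obese and 37.0, 28.9, 31.9 and 41.1 CPM in weight loss libraries. The ranges overlapped in all 3 groups, and obese fat differed from lean by -0.11 ± 0.15 on the log2 scale (adjusted p = 0.71). Tfe3 stood at 55.1, 59.0, 58.3, 61.5 and 66.5 CPM in lean, 62.7, 65.3, 51.3, 49.2 and 50.8 CPM in obese and 65.0, 45.2, 50.9 and 65.5 CPM in weight loss fat. These ranges overlapped as well (obese against lean log2 -0.10 ± 0.12, adjusted p = 0.670). Both proteins are regulated largely by phosphorylation and entry into the nucleus, which transcript counts do not measure.

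**Figure D4:**
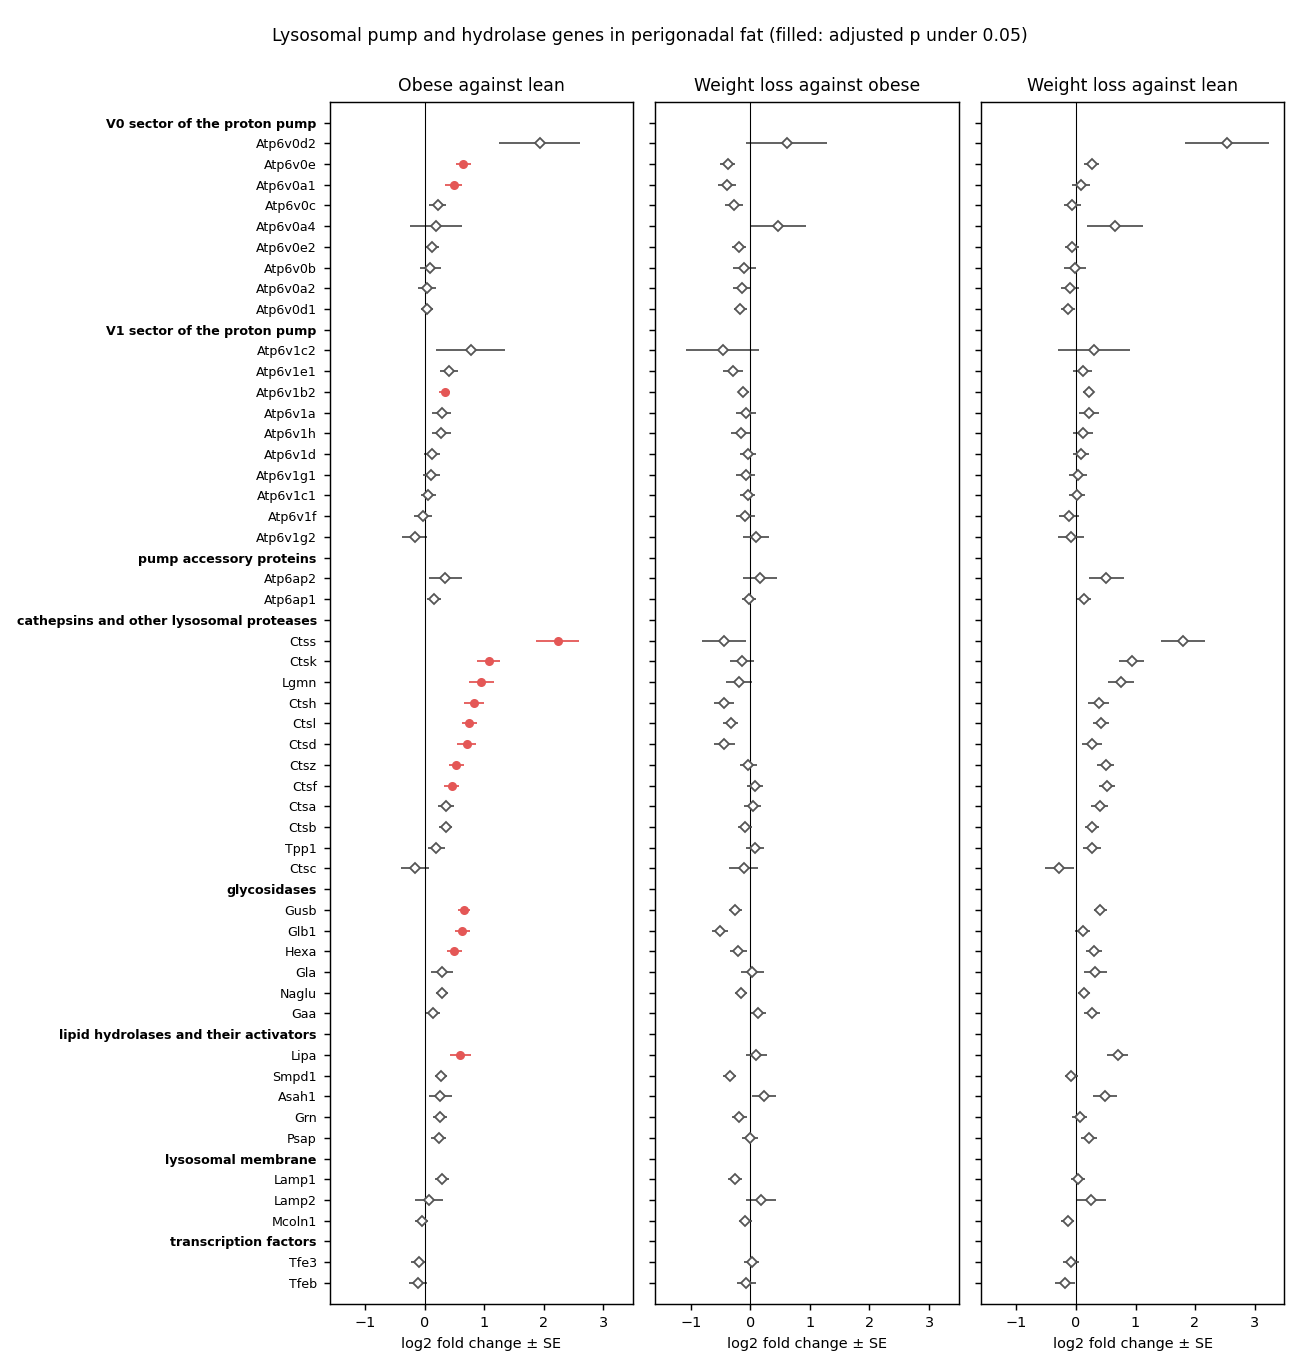
Log2 fold change ± standard error from edgeR's quasi-likelihood fit for 49 tested genes by role in the 3 comparisons, with genes at an adjusted p under 0.05 as filled circles and others as open diamonds. In obese against lean fat 15 genes are filled, 8 of them proteases, and in the other comparisons none; Atp6v1g3, at 0 in all weight loss libraries, is left out.

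Weight loss against obese fat asked whether 1 week back on chow changed these genes. No gene of the 50 passed edgeR's test in either direction, and 0.736% of all genes were called higher and 0.881% lower, 1.62% in all. At an unadjusted p under 0.05, 9 of the 50 were lower and none was higher, against 7.13% lower and 7.16% higher over all genes. DESeq2's Wald test called 2 lower, Glb1 and Smpd1, and limma-voom none. Over all 15208 genes the Wald test called 423 lower and 268 higher. The median log2 value was -0.11 over the 50 genes and 0.02 over all genes. For Gusb, Glb1, Ctsh and Lamp1 every weight loss library lay below every obese library, which held for 3.27% of all genes. The opposite held for none of the 50 and for 3.38% of all genes. Of the 15 genes that were higher in obese fat, 13 had a weight loss mean between the lean and the obese mean, and 2, Ctsf and Lipa, a mean above the obese one. Both comparisons share the obese libraries, so this order is a description.

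Weight loss against lean fat asked what was still different after the switch. No gene of the 50 passed edgeR's test, in which 0.0329% of all genes were called higher and none lower. At an unadjusted p under 0.05, 15 were higher and none was lower, against 7.55% higher and 3.89% lower over all genes. Of these 15, 9 were proteases. DESeq2's Wald test called 7 higher, namely Ctss, Ctsk, Lgmn, Lipa, Gusb, Ctsf and Atp6v0d2, and limma-voom none. Over all 15208 genes the Wald test called 203 higher and 58 lower, many more than edgeR's test. Ctss differed by 1.79 ± 0.37 on the log2 scale (adjusted p = 0.106), Ctsk by 0.94 ± 0.21 (0.119), Lgmn by 0.76 ± 0.22 (0.198) and Lipa by 0.70 ± 0.18 (0.151). Without weight loss replicate 4 Ctss passed, at a log2 value of 1.99 and an adjusted p of 0.0168. For Ctss, Ctsl and Ctsf every weight loss library lay above every lean library, which held for 1.58% of all genes.

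The 4 weight loss libraries split in the same way for many of these genes. Against the lean mean, the median log2 ratio over the 12 proteases was 0.66 in weight loss replicate 1 and 0.64 in replicate 3, but 0.15 in replicate 2 and 0.29 in replicate 4. In the obese libraries this median lay between 0.46 and 0.72. For the 11 tested V1 genes it was -0.25, 0.09, 0.08 and 0.24 in weight loss replicates 1 to 4, an order unlike that of the proteases. The labels name no batch for these libraries.

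Macrophage markers were higher in obese fat along with the proteases, and among the weight loss libraries the general ones matched the proteases in part. In obese against lean fat 8 of the 16 markers of macrophages in general rose, against 5.86% of all genes, and none passed in the other comparisons. Their summed level was 667, 713, 1108, 509 and 501 CPM in lean, 1710.2, 1373, 1576, 1451 and 1071 CPM in obese and 1526, 678, 1479 and 1105 CPM in weight loss libraries. Weight loss replicates 1 and 3, high in Ctss, Lgmn, Lipa and Atp6v0d2, were also the higher in these markers, and replicate 2, low in those genes, was at the lean level. Replicate 4, also low in those genes, held 1105 CPM of the markers, inside the obese range. C1qa, C1qb and C1qc were the most abundant markers in that library, at 260, 211 and 162 CPM. Adgre1, Itgam, Lyz2, Mertk, Mpeg1, Mrc1 and Ptprc were lower there than in every obese library, and the other markers of the list were not. C1qa, a complement gene of tissue macrophages and the most abundant of the list in obese fat, rose from 132 ± 38.5 to 291 ± 48.1 CPM (SD, n = 5 each, adjusted p = 0.00924). C1qb had 121 ± 37.5 and 233 ± 30.3 CPM and C1qc 97.2 ± 32.3 and 193 ± 29.7 CPM, and both rose. No marker of this list was at 0 in any library. Of 12 markers of lipid-associated macrophages 7 rose, with a summed level of 437 to 579 CPM in lean and 751 to 1056 CPM in obese libraries. In weight loss replicates 1 to 4 the sum was 1190, 596, 1174 and 648 CPM. Replicates 1 and 3 were thus above the obese range, and replicates 2 and 4 between the lean and the obese ranges. The most abundant members of this second list were Plin2 and Fabp5, which adipocytes also express, and Cd9, and Dcstamp was at 0 in lean replicate 1 alone. In whole tissue more macrophages and more of a transcript per cell cannot be told apart, and the part of macrophage number in the rise of the proteases was not tested.

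**Figure D5:**
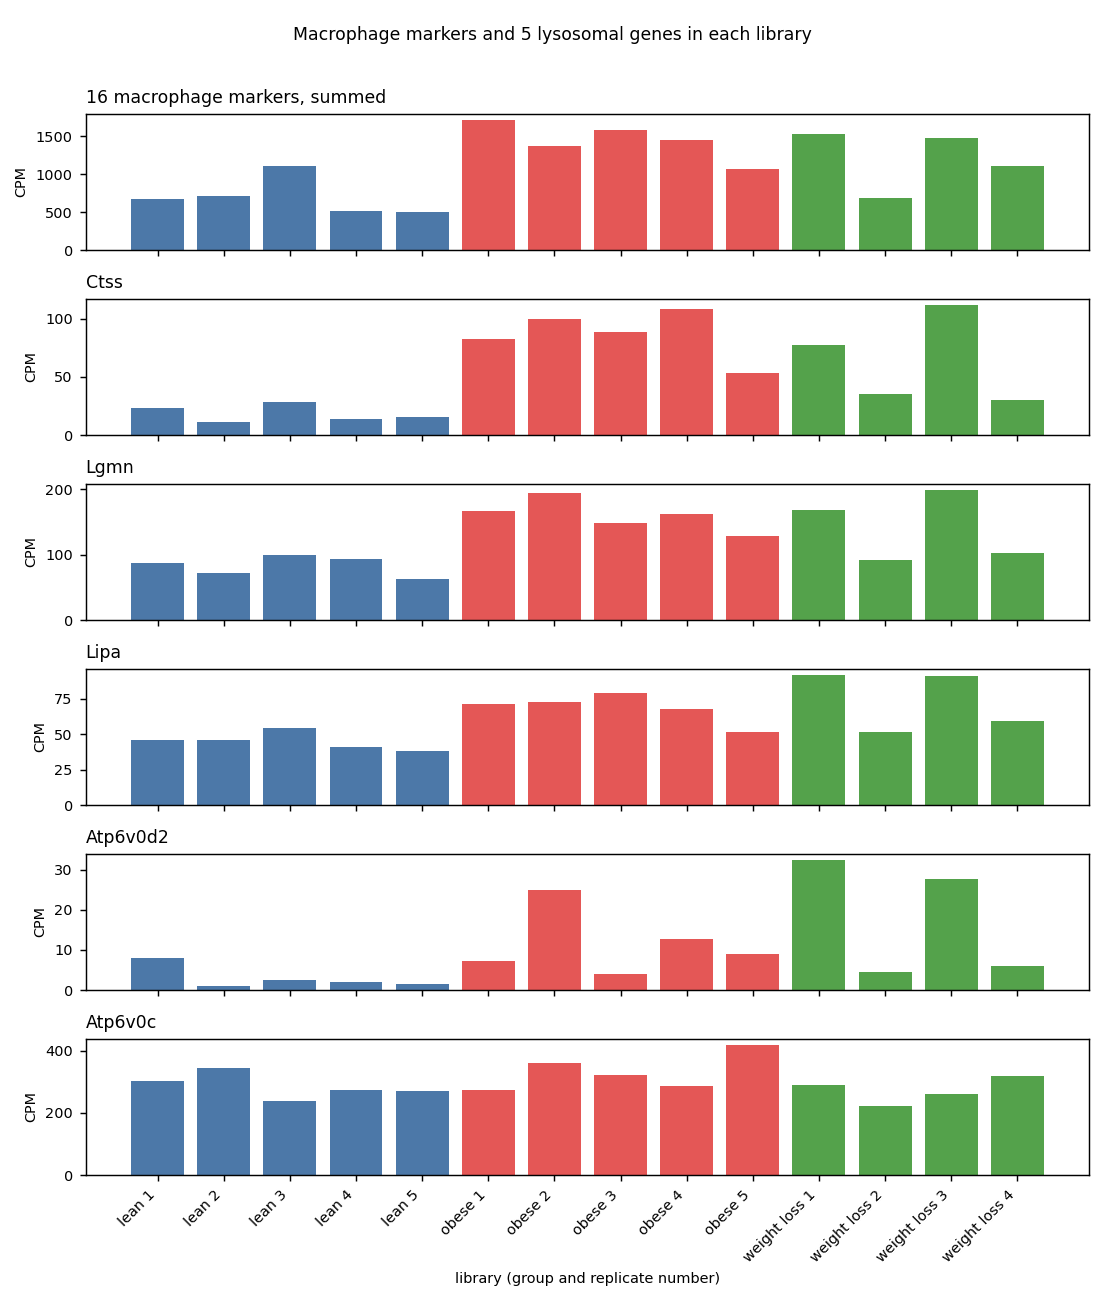
Summed CPM of 16 macrophage markers (top) and CPM of 5 genes in each of the 14 libraries, with lean in blue, obese in red and weight loss in green, and each axis from 0. Ctss, Lgmn, Lipa and Atp6v0d2 are high in weight loss replicates 1 and 3 and low in 2 and 4, while the macrophage markers are highest in replicates 1 and 3, at 1105 CPM in replicate 4 and at 678 CPM in replicate 2; Atp6v0c has no such split.

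Markers of other cells also differed, where 5.86% of all genes were called higher in obese fat and 3.85% lower. Adipocyte markers had 3 of 12 lower and 1 higher in obese fat, namely Cfd, Slc2a4 and Pparg, and Lep. Cfd, the adipsin gene, fell from 10097 ± 2749 to 3686 ± 800.2 CPM (SD, n = 5 each), and Fabp4 and Plin4, which with Cfd were the most abundant markers in obese fat, did not pass. Lep, the leptin gene, named here after its values were seen, rose from 601 ± 125 to 1572 ± 178 CPM and was lower again after weight loss, at 631 ± 125 CPM (SD, n = 4; adjusted p = 0.00133). Of 11 markers of progenitors and mesothelium 4 rose, with a summed level of 818 to 1656 CPM in lean and 1342 to 1808 CPM in obese fat, and Dcn, the most abundant, was not called. Of 9 genes of clear and intercalated cells, 4 of them pump genes, none of the 6 tested passed in any comparison. Of 19 tested epididymis markers 1, Lcn5, was called in obese against lean fat and none in the other comparisons, although 16 were lower after weight loss than in obese fat at an unadjusted p under 0.05. The Lcn5 call rested on obese replicate 4, at 1162 CPM. Its level was 0 to 4.30 CPM in the other obese libraries and 0 to 1.81 CPM in lean libraries. Without the 4 libraries richest in epididymis markers, which leaves 2 obese and 4 lean libraries, 0 of the 15 raised genes passed and 125 genes passed in all. Their log2 values remained positive for all 15 and lay between 0.28 (Atp6v1b2) and 2.32 (Ctss). The 15 were chosen in a fit that held these same libraries, so the kept sign is a description. When the epididymis level was a covariate, 9 of the 50 genes passed, 8 of the 15 and Ctsb, while 497 were higher and 201 lower over all genes.

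Other genes of the pathway were read from lists of hydrolases, membrane proteins, delivery factors, inhibitors, nutrient sensors and autophagy genes. Over all genes 5.86% were called higher and 3.85% lower in obese against lean fat. Of 29 further hydrolases and activators 6 were higher in obese fat and none lower, with a median log2 value of 0.27. Lgals3, a lectin that gathers on damaged lysosomes, rose from 94.8 ± 10.1 to 228 ± 27.6 CPM and Pcyox1, which breaks down prenylated cysteine, from 92.7 ± 15.9 to 145 ± 8.37 CPM (SD, n = 5 each). Ggh, a hydrolase of folate polyglutamates, rose by 0.64 ± 0.17 on the log2 scale.

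Of 25 further membrane proteins and transporters 5 rose in obese fat and none fell. Ostm1, the partner of a lysosomal chloride transporter, rose by 0.67 ± 0.14, Cd68, a membrane protein of macrophage lysosomes, by 1.41 ± 0.32, Laptm5, a lysosomal protein of blood cells, by 0.92 ± 0.24, and Tpcn2, a lysosomal cation channel, by 0.60 ± 0.17, all on the log2 scale. Tcirg1, which encodes the a3 form of the V0 subunit and is not among the pump symbols above, had a lean mean of 78.5 ± 21.7 and an obese mean of 74.7 ± 8.89 CPM (SD, n = 5 each, adjusted p = 0.874). Among 10 genes that deliver hydrolases to the lysosome none rose and 1 fell, Sort1, the sortilin gene (log2 -0.31 ± 0.09, adjusted p = 0.0498).

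Among the 4 tested cystatins, inhibitors of cathepsins, Cstb rose by 0.54 ± 0.11 on the log2 scale, and Cst3, the secreted cystatin C, did not pass (0.19 ± 0.18). Of 17 tested genes of nutrient sensing at the lysosome 1 rose, Rheb, an activator of mTORC1 (log2 0.44 ± 0.11), and 1 fell, Flcn, a regulator of Rag GTPases that restrains Tfe3 and Tfeb (log2 -0.45 ± 0.12, adjusted p = 0.0263). Mitf, of the same family of factors as Tfeb and Tfe3, had a lean mean of 20.0 ± 6.24 and an obese mean of 13.2 ± 3.14 CPM (SD, n = 5 each, adjusted p = 0.101). Of 24 autophagy genes 1 rose, Optn, a cargo receptor, from 25.2 ± 4.59 to 60.0 ± 8.16 CPM (SD, n = 5 each, adjusted p = 0.000587), and Sqstm1, the p62 receptor, did not pass (log2 0.22 ± 0.10). Of these 17 and 24 genes, 1 call in a direction is near the shares over all genes, 5.86% higher and 3.85% lower. In weight loss against obese fat 1 of the 29 further hydrolases and activators was called lower, and none in the other lists passed. No gene of these lists passed in weight loss against lean fat.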

How the data were processed

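Poly(A) RNA of mouse perigonadal fat was sequenced in 15 libraries. The values are expected counts by Entrez ID, deposited without normalization, of which 34.8% are not whole. The build was mm10, per the submitters' processing notes; the aligner, counter, annotation and strandedness were not given in the sources used here, so reads shared between paralogues, pseudogenes or overlapping genes cannot be judged. Lines of one ID were summed, counts were rounded, and symbols came from RefSeq (32919 IDs) or GENCODE (24). Libraries under 1000000 counts were left out.

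One model over 3 groups was fitted with edgeR 4.0.16 (filterByExpr, TMM, glmQLFTest, two-sided) in R 4.3.3, with Benjamini-Hochberg adjustment over 15208 genes. Standard errors were taken as the size of the log2 value divided by the root of F. Library values, means and SDs are in TMM-scaled CPM. Replicates did not duplicate one another. The test was checked on simulated data. Members and lists were chosen with earlier results of these data known. Values of every library are given for genes called in any comparison and for Atp6v0d1, Atp6v0d2, Atp6v1h, Lamp1, Tfeb and Tfe3, and from other lists up to 4 called genes plus Tcirg1, Mitf, Sqstm1 and Cst3. Alternatives were other scalings and filters, DESeq2 1.42.0, limma-voom 3.58.1, fits of only the pair compared, a replicate block, the epididymis level as a covariate or 4 libraries richest in it left out, and each library left out. A planned comparison of protein sequences was not made, and 1 gene of the further lists is not reported here.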

Additional observations from a re-analysis of the deposited data

Results flagged for a closer look

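In 63 groups of 4 or 5 libraries (21 genes in 3 groups), the highest or lowest library stood apart from the others by Dixon's criterion in 6 cases, where chance flags about 1 in 20. Glb1 was low in lean replicate 5, at 43.9 CPM. Ctsh was high in obese replicate 4, at 117 CPM. Hexa was low in weight loss replicate 2, at 145 CPM, and Atp6v0a1 high in weight loss replicate 1, at 214.6 CPM. Atp6v0d1 was high in weight loss replicate 4, at 250.2 CPM. Atp6v0d2 was high in lean replicate 1, at 7.89 CPM, and lean replicate 1 is 1 of the 4 libraries rich in epididymis markers.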

How the results depend on the processing

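The count of 15 genes higher in obese fat fell to 9 once the epididymis level entered as a covariate, and to 0 when the 4 libraries highest in epididymis markers were left out, where fewer libraries were tested. Over all genes, calls higher in obese fat went from 891 to 497 with the covariate and to 93 without those 4 libraries. The count of 15 ran from 9 to 16 with 1 library left out (9 without obese replicate 3, and 10 without lean replicate 4 or obese replicate 2), and that over all genes from 503 to 993. In every such fit 9 of the 15 genes were called. All 15 kept a positive log2 value in each of the 24 alternatives. The alternatives reuse the libraries in which the 15 were chosen, so the kept sign is a description. With other scalings, filters and tests and with only the pair compared the count was 11 to 18, and 693 to 1250 over all genes. In weight loss against obese fat the count of lower genes was 2 with DESeq2 and 0 to 1 with 1 library left out, and in weight loss against lean fat the count of higher genes was 7 with DESeq2 and 0 to 1 with 1 library left out. Counts in the opposite direction were 0 in every alternative.

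Signs turned only for log2 values that passed in neither fit, and the cause was not tested. Ranges are over the fits with 1 library left out. For obese against lean fat Atp6v0d1 was -0.0410 without the 4 libraries and ranged from -0.0604 to 0.0684. For weight loss against obese fat the ranges were -0.2778 to 0.0247 for Ctsk, -0.1304 to 0.0810 for Ctsz, -0.0143 to 0.1388 for Ctsf, -0.0211 to 0.2391 for Lipa, -0.1676 to 0.0117 for Tfeb and -0.0651 to 0.1145 for Tfe3. With the covariate Lipa was -0.0065, Tfeb 0.0192 and Tfe3 -0.0521, and without the 4 libraries Lipa was -0.0342 and Tfe3 -0.0103. For weight loss against lean fat the ranges were -0.0713 to 0.1613 for Atp6v0a1, -0.0410 to 0.0863 for Lamp1 and -0.1956 to 0.0102 for Tfe3, and Lamp1 was -0.0019 without a filter and -0.0095 with a filter of at least 1 CPM in at least 5 libraries.

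With the replicate number as a block, 15 of the 50 genes were higher in obese fat, 14 of them among the 15, and none was called in the other comparisons, where calls over all genes went from 246 to 172 (weight loss against obese) and from 5 to 2 (weight loss against lean). Same-numbered libraries did not deviate together (correlations of -0.55 to 0.40, with 4 of 13 pairs over 0.1), and 3 of 14 libraries correlated best with their own number. Atp6v1b1, Atp6v1e2, Atp6ap1l and Atp6v1fnb, with group means of at most 0.807 CPM, did not pass the filter on low counts and were not tested.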
